A study of Homo sapiens with 15 samples.

Results

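Interferon stimulated genes are genes whose transcription rises when a cell responds to interferon. The 42 genes described here were chosen by gene symbol, as an established list of such genes, with earlier results of these data known. They make up 42 of the 33158 symbols in the deposited expression table.

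The study compared cancer stem cells (CSCs) with other cells in established triple negative breast cancer lines. CSCs, sorted as CD44+/CD24-/low cells, and non-CSCs, the remaining cells, were taken from the lines SUM149PT and HCC1937. Another line, SUM159PT, was sequenced unsorted and is labelled by the submitters as cancer stem cells, since nearly all of its cells carry that surface pattern. The 5 groups had 3 libraries each, 15 in all, from mRNA captured on oligo(dT) beads, and no treatment is described. SUM149PT and SUM159PT were grown in F12 with serum, insulin and hydrocortisone and HCC1937 in RPMI with serum, so in comparisons with HCC1937 effects of medium and line cannot be told apart.

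Interferons are secreted cytokines. Type I and type III interferons bind different receptors, but both activate the kinases JAK1 and TYK2 and lead to the complex ISGF3, which contains STAT2 and IRF9 and binds the interferon-stimulated response element (ISRE) in promoters. Type II interferon acts at gamma-activated sites (GAS).

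The 250 bases before the transcription start of 4 genes are shown because their transcripts took different courses in the sorted fractions, described further on, while each stretch holds the core of the ISRE, GAAA repeated after 2 bases of any kind. They are written 5' to 3' on the strand of the gene, from RefSeq on build GRCh38.p14, with core matches on either strand in capitals. GBP1 (chr1:89065209-89065458, reverse strand), higher in CSCs of SUM149PT, has 1 match, which begins at position -127 from the start. HERC5 (chr4:88456869-88457118, forward strand), lower in the same cells, has 3, the first at -125. OAS3 (chr12:112938224-112938473, forward strand), whose CSC effect differed between lines, has 2, the first at -143. ISG15 (chr1:1013247-1013496, forward strand), called in neither line, has 2 that overlap, the first at -113.
GBP1: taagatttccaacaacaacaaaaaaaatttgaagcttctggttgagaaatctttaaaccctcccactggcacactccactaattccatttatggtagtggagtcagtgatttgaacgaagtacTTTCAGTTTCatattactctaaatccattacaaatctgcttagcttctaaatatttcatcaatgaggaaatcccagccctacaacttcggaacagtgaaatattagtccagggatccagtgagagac
HERC5: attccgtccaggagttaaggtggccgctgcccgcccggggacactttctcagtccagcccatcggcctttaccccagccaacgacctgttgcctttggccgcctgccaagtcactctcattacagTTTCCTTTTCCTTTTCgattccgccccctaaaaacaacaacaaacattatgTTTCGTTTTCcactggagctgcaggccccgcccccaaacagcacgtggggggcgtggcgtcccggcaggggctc
OAS3: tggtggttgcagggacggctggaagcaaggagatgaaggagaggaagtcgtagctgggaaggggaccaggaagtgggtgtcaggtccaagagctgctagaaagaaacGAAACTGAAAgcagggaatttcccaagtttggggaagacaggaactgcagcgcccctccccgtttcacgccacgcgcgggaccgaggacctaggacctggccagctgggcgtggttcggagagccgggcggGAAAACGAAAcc
ISG15: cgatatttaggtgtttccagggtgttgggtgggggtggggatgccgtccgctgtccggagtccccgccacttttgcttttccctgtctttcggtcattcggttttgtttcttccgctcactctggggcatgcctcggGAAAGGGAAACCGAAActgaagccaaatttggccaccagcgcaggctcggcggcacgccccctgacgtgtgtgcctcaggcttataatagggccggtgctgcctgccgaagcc

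Promoter windows of 300 bases, 250 before and 50 after a start, were available for 33 of the 42 genes. The ISRE core was in a window of 23 of the 33 (69.7%), against 4.38% of the 27305 genes with a window and 3.57% of all 35116 windows. The core TTCNNNGAA of the GAS, which can overlap the former, was found for 10 of the 33 (30.3%), against 9.38% of all genes and 7.66% of all windows. A match describes the letters and was not tested as a binding site.

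Levels are given as FPKM, fragments scaled to transcript length and library size. Sums over all genes were 291276 to 366532 FPKM in the 12 sorted libraries and 634746 to 652082 in SUM159PT. Sequencing depth is unknown. Nothing says that the 3 libraries of a group came from separate cultures or sorts, so the p-values below measure only the spread between these libraries.

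The interferon stimulated genes covered a wide range of levels. In SUM149PT CSCs 33 of the 42 had a mean of 1 FPKM or more and 4 a mean of 100 FPKM or more, while in SUM159PT these counts were 16 and 4. Of all genes, 11249 to 11262 were above 1 FPKM in the libraries of SUM149PT CSCs and 8534 to 8670 in those of SUM159PT. IFITM3, which blocks entry of enveloped viruses, was the highest of the 42 in every group, with 31.9% to 39.4% of their summed FPKM in the sorted libraries and 55.1% to 58.5% in SUM159PT. IFI27 was listed at 0 in all 15 libraries. IRF7, a factor that amplifies interferon production, was listed at 0 in all 6 libraries of HCC1937 and lay between 1.13 and 1.69 FPKM in those of SUM149PT.

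The group with the highest mean was HCC1937 non-CSCs for 22 of the 41 genes above 0, SUM149PT non-CSCs for 8, SUM149PT CSCs for 5, SUM159PT for 4 and HCC1937 CSCs for 2. SUM159PT had the lowest mean for 25. The median FPKM over the 42 genes was 7.31 to 8.64 in the libraries of HCC1937 non-CSCs, 4.92 to 5.29 in HCC1937 CSCs, 3.27 to 3.51 in SUM149PT non-CSCs, 3.02 to 3.45 in SUM149PT CSCs and 0.469 to 0.587 in SUM159PT. HCC1937 non-CSCs were thus the highest on this measure and SUM159PT the lowest, and the 2 fractions of SUM149PT overlapped.

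**Figure D1:**
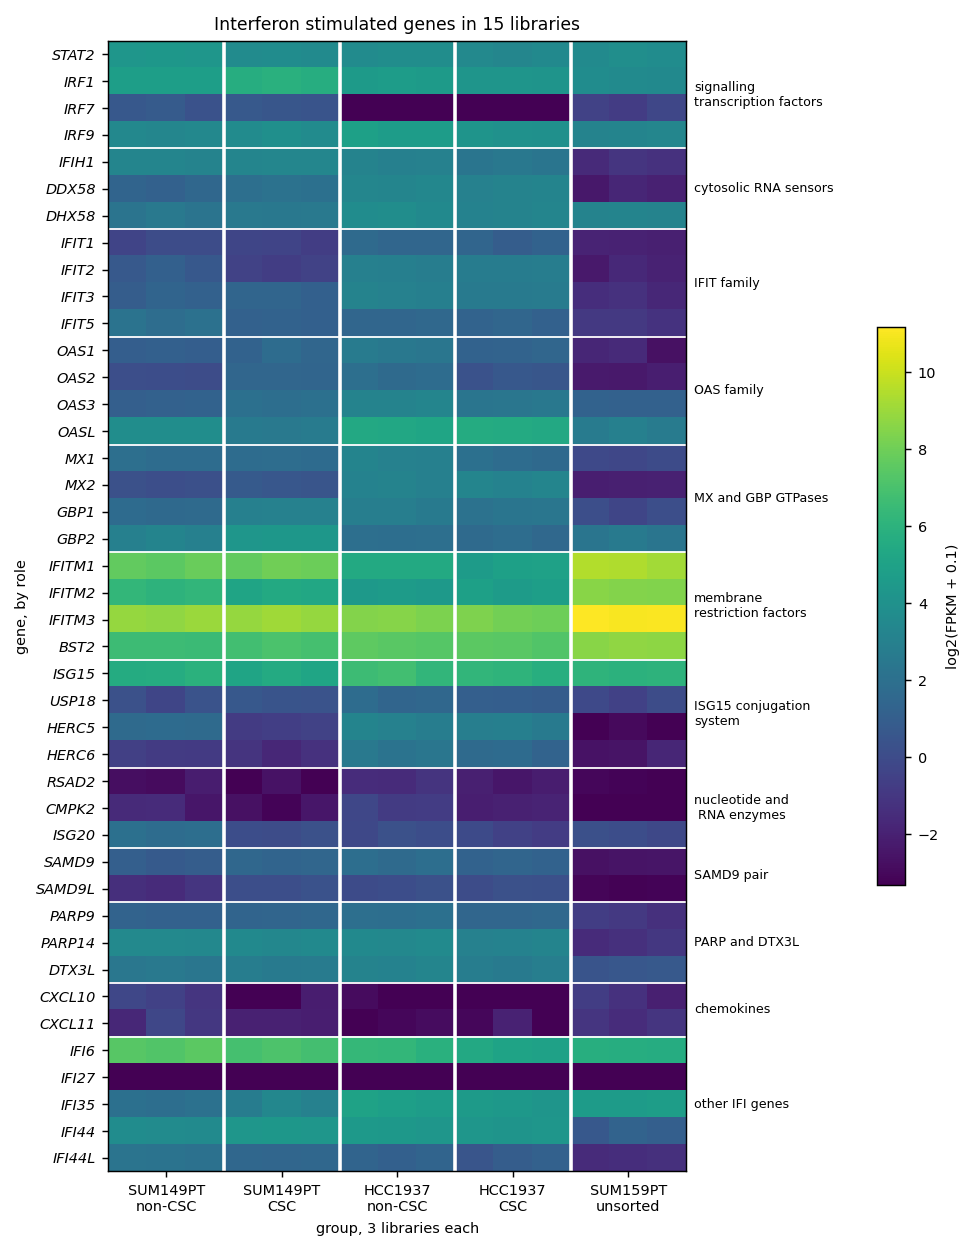
Level of the 42 interferon stimulated genes, as log2(FPKM + 0.1), in each of the 15 libraries, with genes ordered by role and 3 columns for each group. IFITM3 has the highest value in every group, and IFI27 is listed at 0 throughout. SUM159PT holds the lowest group mean for 25 genes, and fewer of all genes are above 1 FPKM there (8534 to 8670) than in the sorted libraries (11249 to 11997).

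The fractions of each line were compared with limma on log2(FPKM + 0.1), over genes that averaged 0.1 FPKM or more across the 6 libraries of the line. This scale understates the change of low genes. A gene that reached the minimum in 1 of the groups alone was kept through the group where it was higher, so its call is not read as a result. Counts are therefore also given for the genes that reached it in every group compared, an alternative chosen after seeing the data, while counts under other settings include all genes tested. Genes were called when the Benjamini-Hochberg adjusted p did not exceed 0.05 and the log2 fold change was 1 or more in either direction. An exact two-sided permutation test of 3 against 3 libraries cannot give a p below 0.10.

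In SUM149PT, 40 of the 42 genes were tested, all but RSAD2 and IFI27, and CMPK2 and CXCL10 reached the minimum through the non-CSCs alone. Called were 11 of the 40 (34.9% of all genes), 5 higher in CSCs (12.8%) and 6 lower (22.1%). Higher were OAS2, GBP1, GBP2, SAMD9L and IFI35, and lower were IFIT2, OASL, HERC5, ISG20, CXCL10 and CXCL11. Without the fold limit, 29 passed (74.8% of all genes), 15 higher (33.3%) and 14 lower (41.5%), and 17 of the 40 had a log2 fold change below 0 (54.3%). At an adjusted p of 0.0001, the limit of the study, 6 were called (20.5%). Of the 38 that reached the minimum in both fractions, 10 were called (30.7% of all such genes), 5 higher (12.2%) and 5 lower (18.5%), and CXCL10 was the call set aside. In the values as deposited, the share called was not above that of all genes, and neither direction prevailed.

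In HCC1937, 38 of the 42 genes were tested, all but IRF7, CXCL10, CXCL11 and IFI27, and 34 of the 38 had a log2 fold change below 0 (54.0% of all genes). Called were 4 of the 38 (8.71% of all genes), 0 higher (2.71%) and 4 lower in CSCs (6.0%), namely OAS1, OAS2, MX1 and CMPK2. Without the fold limit, 21 passed (25.6%), 0 higher (10.3%) and 21 lower (15.3%). An unadjusted limma p under 0.05 was found for 26 (37.8% of all genes), 0 higher (16.1%) and 26 lower (21.7%). At the limit of 0.0001, 0 of these and 0 of all genes were called. The paper, with its own statistics, does report genes that differ between the fractions of HCC1937, so the count of 0 holds for the fit used here. The fall was shared by many of the genes and for most of them was smaller than 2-fold.

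The median log2 fold change of the genes tested was -0.43 in HCC1937, where that of all genes was -0.03, and 0.12 in SUM149PT, where that of all genes was -0.11. Rescaling each library to the same sum (TPM) moved the median of all genes in HCC1937 to 0.09 and that of the interferon stimulated genes to -0.32, and the share of higher among all called genes from 31.1% to 42.2%. With TPM 4 were still called lower there (5.40% of all genes). Without the fold limit, 10 were then lower and 2 higher, in place of 21 and 0, with no share of all genes at hand for that setting. In SUM149PT, quantile normalization moved the share of higher among all called genes from 36.5% to 51.2%, and the median of all genes to 0.10. It called 7 of the interferon stimulated genes higher (17.8% of all genes) and 4 lower (16.9%). Without the fold limit, 20 were then higher and 11 lower, in place of 15 and 14, again with no share of all genes at hand.

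The CSC effects of the lines were compared by an interaction over the 12 sorted libraries, the SUM149PT effect minus the HCC1937 effect. Of 41 genes tested, 17 were called (30.4% of all genes), 11 with the SUM149PT effect above that of HCC1937 (12.2%) and 6 below it (18.2%). Of the 36 that reached the minimum in all 4 groups, 16 were called (26.2% of such genes), 11 above (10.4%) and 5 below (15.7%), again without CXCL10. Without the fold limit 32 passed (61.1%), 24 above (28.1%) and 8 below (33.0%). Quantile normalization moved the median of all genes from -0.08 to 0.06 and the share above among all called genes from 40.2% to 50.7%. It gave 13 above (15.7% of all genes) and 5 below (15.2%). TPM moved them the other way, to -0.17 and 35.1%, and gave 9 above and 6 below, with IRF9 (0.98) and SAMD9 (0.997) under the fold limit. The median difference of the interferon stimulated genes was 0.55 in the values as deposited.

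Of the 37 genes tested in both lines, OAS2 was the single gene called in both (6.04% of the 14423 genes tested in both), in opposite directions, and with a pseudocount of 1 it was called in neither. Without the fold limit, 9 were higher in SUM149PT CSCs and lower in HCC1937 CSCs (2.91% of those genes), namely IRF1, IRF9, OAS1, OAS2, OAS3, GBP1, SAMD9, DTX3L and IFI35, and 0 the reverse (2.93%). Lower in both lines were 3 (10.1%), namely HERC6, IFI6 and CMPK2, and 0 were higher in both (5.93%). CMPK2 reached the minimum in SUM149PT through the non-CSCs alone and is not read as a result there.

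**Figure D2:**
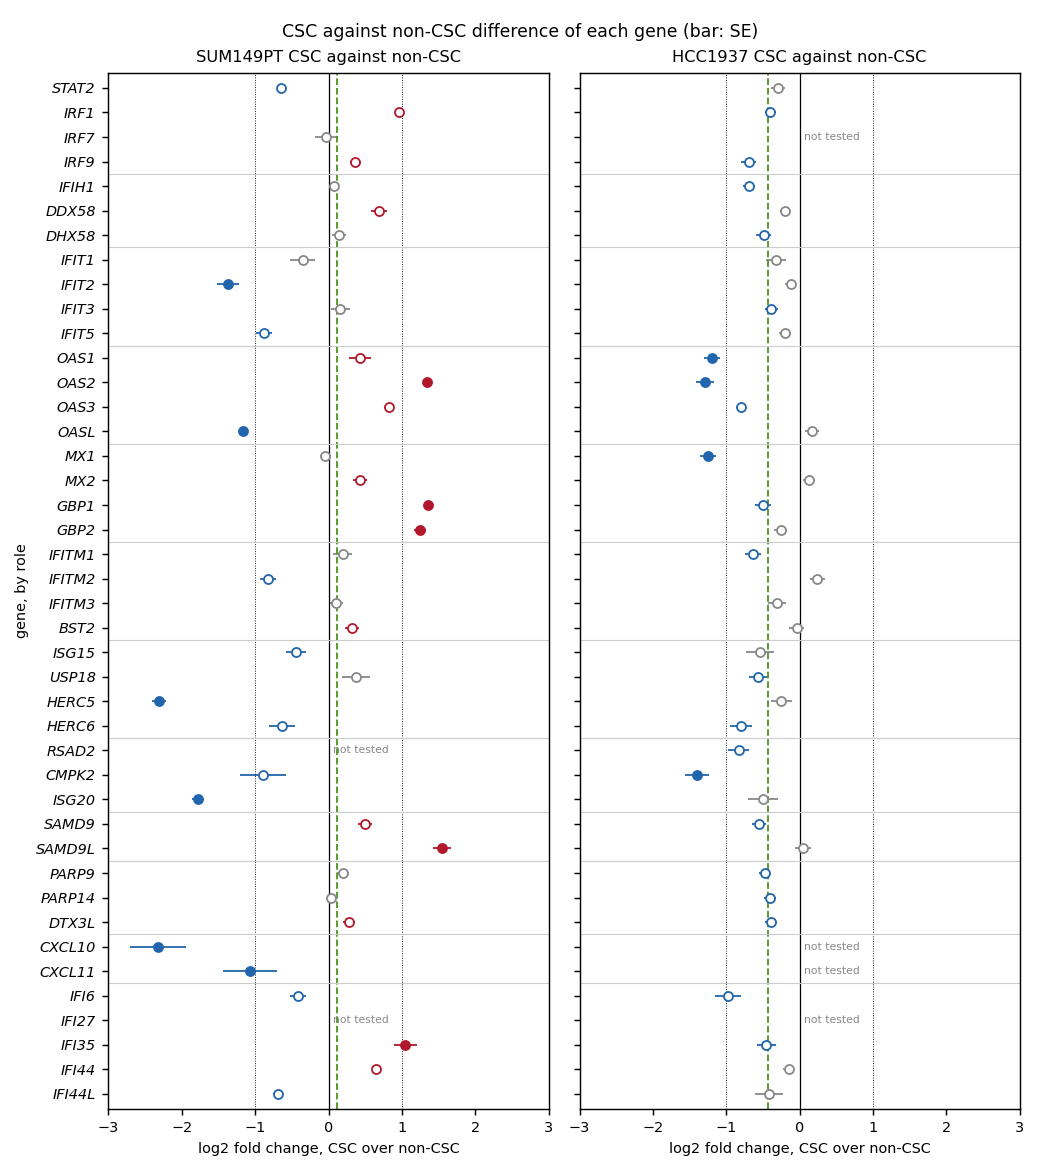
Log2 fold change of CSCs over non-CSCs for each gene in SUM149PT (left) and HCC1937 (right), with 1 SE as the bar. Filled points were called, open colored points had an adjusted p of 0.05 or less only (red higher, blue lower), grey points missed it, dotted lines mark a log2 fold change of 1 in either direction, and the dashed green line is the median. In HCC1937 all 21 colored points lie below 0.

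The fractions differed in cell state markers in both lines. CD24, one of the sort markers, had a mean of 7.74 FPKM in SUM149PT CSCs and 139 in non-CSCs, and of 23.3 and 150.0 in HCC1937. CD44, the other, had means of 84.4 and 64.5 FPKM in SUM149PT CSCs and non-CSCs and of 106 and 97.8 in HCC1937, where the fractions overlapped. In SUM159PT CD44 was at 28.8 FPKM and CD24 at 0.729. The summed mean of 8 epithelial markers was 133 against 1832 FPKM in SUM149PT and 597 against 1605 in HCC1937. Vimentin (VIM), a mesenchymal marker, was at 2089.9 against 244 FPKM and at 917 against 156. In SUM159PT the epithelial sum was 287 FPKM, carried by KRT8 and KRT18 with means of 132 and 153, and the other 6 markers had means below those of both CSC fractions. Of the 4 mesenchymal markers, VIM at 1078 and FN1 at 158 FPKM lay between the CSC fractions there, and ZEB1 at 0.204 and CDH2 at 2.86 were below both. In TPM VIM was below both as well, without overlap, so its order depended on the scaling. The markers show that the fractions differ in cell state, and their part in the result was not tested. In such bulk libraries, fewer cells of a type and less RNA per cell cannot be told apart.

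Of 14 leukocyte markers, 8 were listed at 0 in every library of SUM149PT CSCs, SUM149PT non-CSCs and HCC1937 CSCs, 6 in HCC1937 non-CSCs and 7 in SUM159PT. CD14, which epithelial cells can express, was the single one with a mean of 1 FPKM or more in any group, at 2.66, 51.3, 60.3, 30.3 and 18.7 FPKM in that order. The summed mean of 4 endothelial markers was 0.168 to 1.71 FPKM.

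Among the signalling factors, IRF1 and IRF9 had opposite effects in the lines. IRF1, an interferon-induced factor that binds sites resembling the ISRE, stood at 53.2, 57.8 and 51.9 FPKM in SUM149PT CSCs and at 27.8, 28.0 and 27.7 in non-CSCs. HCC1937 had 18.8, 18.7 and 18.1 FPKM in CSCs and 23.3, 25.9 and 24.2 in non-CSCs. CSCs were the higher fraction in SUM149PT and the lower in HCC1937, without overlap. The log2 fold change was 0.96 ± 0.062 (SE; adjusted p = 4.52e-05 by limma) in SUM149PT and -0.40 ± 0.070 (adjusted p = 0.0106) in HCC1937, both under the fold limit. Their difference was called, at 1.36 ± 0.085 (adjusted p = 6.24e-07).

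IRF9, the DNA-binding subunit of ISGF3, had means of 13.4 and 10.4 FPKM in SUM149PT CSCs and non-CSCs and of 16.7 and 27.1 in HCC1937. The difference between the lines in its log2 fold change was 1.06 (adjusted p = 5.07e-05) by limma. It was 0.98 without HCC1937 non-CSC replicate 1 and 0.996 without SUM149PT CSC replicate 2, each of which ended the call. STAT2, its partner in ISGF3, had means of 12.7 and 20.0 FPKM in SUM149PT and of 10.9 and 13.3 in HCC1937, and was not called in either line. IRF7 had means of 1.40 and 1.44 FPKM in the CSCs and non-CSCs of SUM149PT, which overlapped.

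None of the 3 cytosolic RNA sensors was called between fractions. IFIH1 (MDA5), which binds long double-stranded RNA, had means of 9.85 and 9.37 FPKM in SUM149PT CSCs and non-CSCs. In HCC1937 its means were 5.07 and 8.23 FPKM, with a log2 fold change of -0.69 (adjusted p = 0.00248) by limma. DDX58 (RIG-I), which binds RNA with a triphosphate end, had a log2 fold change of 0.69 (adjusted p = 0.00194) in SUM149PT and of -0.20 (adjusted p = 0.099) in HCC1937. DHX58 (LGP2), which modulates the others, had -0.49 (adjusted p = 0.0164) in HCC1937. All 3 had a more positive effect in SUM149PT than in HCC1937 at an adjusted p of 0.05, under the fold limit.

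The IFIT proteins bind viral RNA that lacks the cap marks of the host. IFIT2 stood at 0.639, 0.516 and 0.632 FPKM in SUM149PT CSCs and at 1.56, 2.10 and 1.47 in non-CSCs. For HCC1937 the values were 6.75, 6.70 and 7.04 FPKM in CSCs and 7.90, 7.45 and 7.02 in non-CSCs. The fractions were apart in SUM149PT and overlapped in HCC1937, where both were above every library of SUM149PT. In SUM149PT the log2 fold change was -1.37 ± 0.15 (SE; adjusted p = 0.000424 by limma), with -0.92 after quantile normalization and -0.76 with a pseudocount of 1, which ended the call. HCC1937 had -0.12 ± 0.072 (adjusted p = 0.274), and the difference between lines was -1.25 ± 0.18 (adjusted p = 0.000162), with -0.88 and -0.65 in these settings, also not called.

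Of the other IFIT genes, IFIT5 had a log2 fold change of -0.88 (adjusted p = 0.000501) by limma in SUM149PT and IFIT3 one of -0.39 (adjusted p = 0.0257) in HCC1937. IFIT1 had group means from 0.157 FPKM in SUM159PT to 2.79 in HCC1937 non-CSCs and missed the adjusted p limit in both lines.

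The OAS enzymes make 2'-5' linked oligoadenylates that activate the ribonuclease RNase L, and OASL is a relative without that activity. OAS2 stood at 2.66, 2.70 and 2.58 FPKM in SUM149PT CSCs and at 1.03, 0.985 and 0.921 in non-CSCs. In HCC1937 it stood at 1.16, 1.51 and 1.34 FPKM in CSCs and at 3.76, 3.10 and 3.34 in non-CSCs. The order of the fractions was opposite in the lines, with no overlap. CSCs rose by a log2 fold change of 1.35 ± 0.062 (SE; adjusted p = 1.32e-05 by limma) in SUM149PT, and the value in HCC1937 was -1.29 ± 0.12 (adjusted p = 0.00132). The difference between lines was 2.64 ± 0.14 (adjusted p = 1.96e-07), the largest of the interferon stimulated genes tested. With a pseudocount of 1 OAS2 was at 0.88 in SUM149PT and -0.91 in HCC1937, under the fold limit in both.

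OAS1 stood at 2.22, 3.33 and 2.64 FPKM in SUM149PT CSCs and at 1.91, 2.11 and 1.94 in non-CSCs. Its values in HCC1937 were 2.24, 2.36 and 2.63 FPKM in CSCs and 6.41, 5.41 and 5.13 in non-CSCs. Non-CSCs of HCC1937 were above every other library. By limma the log2 fold change was -1.19 ± 0.11 (adjusted p = 0.00127) in HCC1937 and 0.42 ± 0.15 (adjusted p = 0.0431) in SUM149PT, with a difference of 1.62 ± 0.19 (adjusted p = 5.44e-05). A pseudocount of 1 gave -0.96 in HCC1937, which ended the call.

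OAS3 had means of 3.89 and 2.15 FPKM in SUM149PT CSCs and non-CSCs and of 5.17 and 9.07 in HCC1937. Its log2 fold changes of 0.82 and -0.80 were under the fold limit in both lines, and their difference, 1.62 (adjusted p = 3.99e-07) by limma, was called. OASL stood at 5.83, 5.69 and 6.55 FPKM in SUM149PT CSCs and at 13.5, 13.9 and 13.5 in non-CSCs, and at 47.9, 46.5 and 42.1 in HCC1937 CSCs and 42.7, 41.5 and 37.2 in non-CSCs. SUM149PT CSCs were lower than non-CSCs, and the fractions of HCC1937 overlapped at a higher level. In TPM the HCC1937 CSCs were above the non-CSCs without overlap, so this order depended on the scaling. OASL had a log2 fold change of -1.16 ± 0.071 (adjusted p = 3.71e-05 by limma) in SUM149PT and of 0.17 ± 0.090 (adjusted p = 0.235) in HCC1937, with a difference of -1.33 ± 0.11 (adjusted p = 4.52e-06).

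Among the GTPases, MX1 was called in HCC1937 and GBP1 and GBP2 in SUM149PT. MX1, which blocks the replication of many viruses, stood at 3.95, 3.44 and 3.05 FPKM in HCC1937 CSCs and at 9.03, 8.17 and 7.92 in non-CSCs. SUM149PT had 3.42, 3.57 and 3.22 FPKM in CSCs and 3.77, 3.37 and 3.40 in non-CSCs. HCC1937 non-CSCs were the one high group, and the fractions of SUM149PT overlapped. MX1 had a log2 fold change of -1.25 ± 0.12 (SE; adjusted p = 0.0012 by limma) in HCC1937 and of -0.05 ± 0.073 (adjusted p = 0.595) in SUM149PT, and their difference was 1.20 ± 0.14 (adjusted p = 3.70e-05). MX2, which restricts retroviruses and herpesviruses, had means of 1.45 and 1.05 FPKM in SUM149PT CSCs and non-CSCs and of 9.17 and 8.40 in HCC1937, and was not called in either line.

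GBP1, a guanylate-binding protein that attacks membranes around intracellular pathogens, stood at 7.89, 8.32 and 8.28 FPKM in SUM149PT CSCs and at 3.25, 3.03 and 3.14 in non-CSCs. The libraries of HCC1937 were at 4.40, 4.93 and 5.13 FPKM in CSCs and at 7.37, 7.22 and 5.98 in non-CSCs. The order of the fractions was again opposite in the lines, without overlap. GBP1 had a log2 fold change of 1.35 ± 0.057 (adjusted p = 1.02e-05 by limma) in SUM149PT and of -0.50 ± 0.11 (adjusted p = 0.0249) in HCC1937, with a difference of 1.85 ± 0.12 (adjusted p = 1.02e-06).

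GBP2, of the same family, stood at 19.3, 20.2 and 20.2 FPKM in SUM149PT CSCs and at 8.001, 9.24 and 7.86 in non-CSCs. HCC1937 had 3.07, 3.52 and 2.87 FPKM in CSCs and 3.77, 3.70 and 3.88 in non-CSCs. SUM149PT CSCs were the highest group. Its log2 fold change was 1.24 ± 0.080 (adjusted p = 4.44e-05 by limma) in SUM149PT and -0.26 ± 0.092 (adjusted p = 0.0968) in HCC1937, with a difference of 1.50 ± 0.12 (adjusted p = 3.26e-06).

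**Figure D3:**
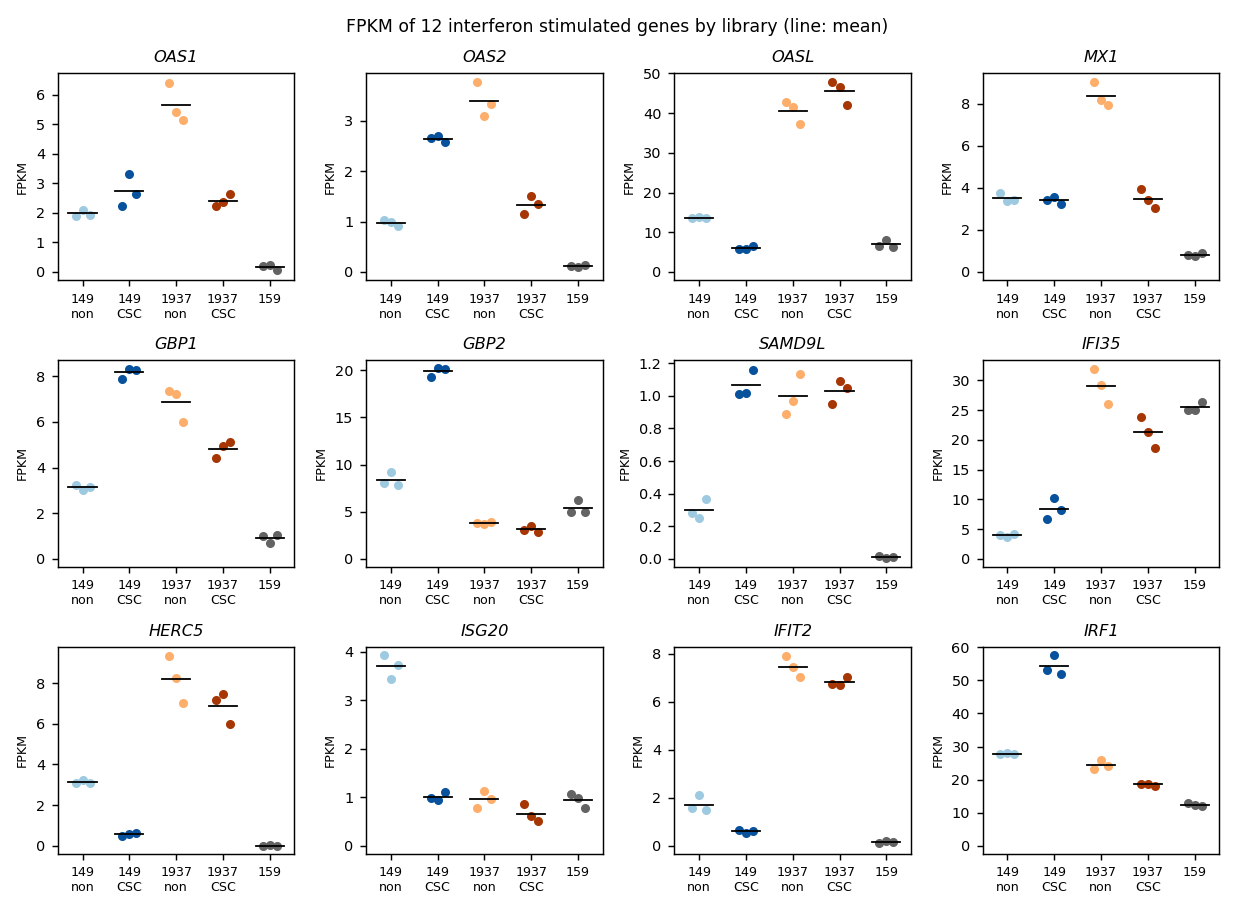
FPKM of 12 interferon stimulated genes in each library (points), with the group mean as a line. The axis names each line by the number in its name, with CSC and non-CSC fractions apart and unsorted SUM159PT last. The order of the fractions of OAS2, GBP1 and IRF1 is opposite in the 2 sorted lines, and HERC5 and ISG20 are lower in SUM149PT CSCs.

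In the ISG15 system, ISG15 is a ubiquitin-like protein that HERC5 attaches to other proteins and USP18 removes. HERC5 stood at 0.484, 0.556 and 0.631 FPKM in SUM149PT CSCs and at 3.07, 3.26 and 3.07 in non-CSCs. In HCC1937 it stood at 7.17, 7.45 and 5.98 FPKM in CSCs and at 9.31, 8.26 and 7.01 in non-CSCs. SUM149PT CSCs were far below non-CSCs, and the fractions of HCC1937 overlapped. HERC5 had a log2 fold change of -2.30 ± 0.095 (SE; adjusted p = 9.40e-06 by limma) in SUM149PT, 4.94-fold lower, and of -0.25 ± 0.14 (adjusted p = 0.258) in HCC1937. The difference between lines was -2.06 ± 0.17 (adjusted p = 4.83e-06).

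ISG15 itself stood at 35.5, 45.9 and 36.9 FPKM in SUM149PT CSCs and at 49.0, 50.5 and 61.0 in non-CSCs. Its values in HCC1937 were 74.3, 67.6 and 54.0 FPKM in CSCs and 97.8, 112 and 75.7 in non-CSCs. CSCs were the lower fraction in both lines without overlap. Both log2 fold changes, -0.44 (adjusted p = 0.0273) by limma in SUM149PT and -0.54 (adjusted p = 0.0956) in HCC1937, were under the fold limit, and the latter missed the p limit. The difference between lines was 0.10 (adjusted p = 0.756). HERC6, a relative of HERC5, had -0.63 (adjusted p = 0.0188) and -0.80 (adjusted p = 0.0146), and USP18 had -0.57 (adjusted p = 0.0194) in HCC1937.

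Of the enzymes that act on nucleotides or RNA, ISG20, an exonuclease that degrades RNA, stood at 0.980, 0.949 and 1.10 FPKM in SUM149PT CSCs and at 3.93, 3.44 and 3.73 in non-CSCs. HCC1937 had 0.855, 0.610 and 0.503 FPKM in CSCs and 0.779, 1.12 and 0.972 in non-CSCs. SUM149PT non-CSCs were the one high group. ISG20 had a log2 fold change of -1.78 ± 0.082 (adjusted p = 1.37e-05 by limma) in SUM149PT and of -0.50 ± 0.21 (adjusted p = 0.145) in HCC1937, with a difference of -1.28 ± 0.24 (adjusted p = 0.000981), which was -0.98 and not called with a pseudocount of 1.

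RSAD2 (viperin), which makes a chain-terminating nucleotide, and its neighbour CMPK2, a mitochondrial nucleotide kinase, were near the lower end of the table. CMPK2 stood at 0.134, 0.154 and 0.173 FPKM in HCC1937 CSCs and at 0.746, 0.483 and 0.505 in non-CSCs, and was called lower at -1.40 ± 0.16 (adjusted p = 0.00253 by limma), a call that ended with a pseudocount of 1 (-0.45). RSAD2 was at 0.347 FPKM or less in every library. Their annotated spans overlap head to head and the strand handling of the counting is not stated, so the assignment of their reads is uncertain. The same holds for PARP9 and DTX3L.

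SAMD9 and SAMD9L are neighbouring genes whose proteins restrict poxviruses. SAMD9L stood at 1.01, 1.02 and 1.16 FPKM in SUM149PT CSCs and at 0.284, 0.251 and 0.369 in non-CSCs, and HCC1937 had 0.948, 1.09 and 1.05 in CSCs and 0.889, 0.971 and 1.13 in non-CSCs. Among the sorted groups SUM149PT non-CSCs were the low one, and SUM149PT CSCs overlapped with both fractions of HCC1937. SAMD9L had a log2 fold change of 1.55 ± 0.12 (adjusted p = 0.000109 by limma) in SUM149PT and of 0.05 ± 0.11 (adjusted p = 0.795) in HCC1937, with a difference of 1.50 ± 0.17 (adjusted p = 3.51e-05). With a pseudocount of 1 the value in SUM149PT was 0.67 and the difference 0.64, and neither was called. SAMD9 had log2 fold changes of 0.50 (adjusted p = 0.00354) and -0.55 (adjusted p = 0.0101). Their difference of 1.05 (adjusted p = 7.50e-05) was 0.98 without SUM149PT non-CSC replicate 2 and 0.78 with a pseudocount of 1, under the fold limit.

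PARP9, PARP14 and DTX3L, which modify proteins with ADP-ribose or ubiquitin, were lower in HCC1937 CSCs at an adjusted p of 0.05 by limma, with log2 fold changes of -0.48, -0.40 and -0.39. In SUM149PT they had 0.19, 0.04 and 0.28, and DTX3L passed that limit (adjusted p = 0.0201). None of the 3 was called in either line.

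The chemokines CXCL10 and CXCL11, ligands of CXCR3 that attract T cells, were low. CXCL10 was listed at 0 in 2 of the 3 SUM149PT CSC libraries and stood at 0.121 FPKM in the other, against 0.733, 0.601 and 0.374 in non-CSCs. CXCL11 stood at 0.155, 0.149 and 0.130 FPKM in SUM149PT CSCs and at 0.203, 0.758 and 0.415 in non-CSCs. Non-CSCs were the higher fraction for both, without overlap. Both were called lower in SUM149PT CSCs, at log2 fold changes of -2.32 (adjusted p = 0.00221) and -1.07 (adjusted p = 0.0411) by limma. CXCL10 reached the expression minimum through the non-CSCs alone, so its call is not read as a result. The call of CXCL11 ended without non-CSC replicate 2 (-0.69, adjusted p = 0.0511), without non-CSC replicate 3 (adjusted p = 0.096) and without CSC replicate 1 (0.0852), 2 (0.0909) or 3 (0.10). With a pseudocount of 1 the values were -0.59 and -0.33, and neither was called. Quantile normalization (-0.47, adjusted p = 0.295), the replicate block (0.0525) and no expression minimum (0.054) also ended the call of CXCL11. In HCC1937 neither gene reached the expression minimum.

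Of the other IFI genes, IFI35, a protein that binds the factor NMI, stood at 6.75, 10.2 and 8.21 FPKM in SUM149PT CSCs and at 4.01, 3.75 and 4.10 in non-CSCs. The libraries of HCC1937 were at 23.8, 21.4 and 18.5 FPKM in CSCs and at 32.0, 29.2 and 26.1 in non-CSCs. The order of the fractions was opposite in the lines, without overlap, and HCC1937 was the higher line. IFI35 had a log2 fold change of 1.05 ± 0.15 (adjusted p = 0.00138 by limma) in SUM149PT and of -0.45 ± 0.13 (adjusted p = 0.0495) in HCC1937, with a difference of 1.50 ± 0.21 (adjusted p = 0.000148). Without SUM149PT CSC replicate 2 the effect in SUM149PT was 0.90 (adjusted p = 0.00172), and with a pseudocount of 1 it was 0.91, both under the fold limit.

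IFI6, a membrane protein that protects against flavivirus replication, had means of 126 and 168 FPKM in SUM149PT CSCs and non-CSCs and of 36.4 and 71.8 in HCC1937, with log2 fold changes of -0.42 (adjusted p = 0.0149) and -0.98 (adjusted p = 0.0118) by limma. IFI44 and IFI44L, a pair of related genes, had opposite effects in SUM149PT, of 0.65 (adjusted p = 0.000135) and -0.69 (adjusted p = 0.000302). Both missed the adjusted p limit in HCC1937.

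The membrane factors IFITM1, IFITM2, IFITM3 and BST2 (tetherin, which holds budding virus particles at the cell surface) were not called between the fractions of either line. IFITM2 had a log2 fold change of -0.83 (adjusted p = 0.00101) by limma in SUM149PT and of 0.24 (adjusted p = 0.134) in HCC1937. The difference of -1.07 (adjusted p = 0.000178) was -0.97 without SUM149PT CSC replicate 1 and -0.91 with a trend on GC content removed, an alternative chosen after seeing the data, under the fold limit in both. The IFITM genes share sequence. Of the stretches of 50 bases in IFITM1 transcripts, 29.4% also occur in IFITM2, and of those in IFITM2, 12.9% also occur in IFITM3, so the split of reads among them is uncertain.

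Other genes of the interferon pathway, 58 that are not among the 42, were taken from a list. In SUM149PT 44 were tested, with 9 called higher (12.8% of all genes) and 9 called lower in CSCs (22.1%). In HCC1937 48 were tested, with 0 called higher (2.71%) and 8 called lower (6.0%), and at an unadjusted limma p under 0.05, 4 were higher (16.1%) and 18 lower (21.7%). The list held 10 ligands, 6 receptor chains, 8 kinases and inhibitors, 9 genes of nucleic acid sensing and 25 other inducible genes.

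Transcripts of type III interferons were present in HCC1937. IFNL1 stood at 3.71, 2.71 and 2.71 FPKM in HCC1937 non-CSCs and at 0.602, 0.670 and 0.730 in CSCs, a log2 fold change of -2.02 ± 0.15 (adjusted p = 0.000602 by limma). It was listed at 0 in the 3 libraries of SUM149PT CSCs and the 3 of SUM159PT, and stood at 0.0564, 0.267 and 0.0641 FPKM in SUM149PT non-CSCs. HCC1937 non-CSCs were the one group above 1 FPKM, and they were above the CSCs of that line without overlap. In SUM149PT IFNL1 was near the floor and was not tested, so its order there is not read as a result.

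IFNL2 stood at 1.49, 1.23 and 0.952 FPKM in HCC1937 non-CSCs and at 0.0681, 0 and 0.370 in CSCs, and IFNL3 at 2.07, 1.36 and 0.751 and at 0.473, 0 and 0.107. Both were lower in CSCs without overlap, at log2 fold changes of -2.71 (adjusted p = 0.0202) and -2.61 (adjusted p = 0.0442) by limma, and both were listed at 0 in the other 9 libraries. With a pseudocount of 1 they were at -0.96 and -0.99, under the fold limit. The adjusted p of IFNL2 missed the limit with a pseudocount of 0.01 (0.0796), with the replicate block (0.0602) and without any of 4 of the 6 libraries (0.0509 to 0.0735). That of IFNL3 missed it with a pseudocount of 0.01 (0.116), with TPM (0.0716), with no expression minimum and without any of 5 of the 6 (0.0642 to 0.132). Of the stretches of 50 bases in IFNL2 transcripts, 32.0% also occur in IFNL3, and the split of their reads is uncertain.

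Among type I ligands, IFNB1 was at 0.159, 0.148 and 0.185 FPKM in HCC1937 non-CSCs and listed at 0 in the other 12 libraries. IFNE, an interferon of epithelia, lay between 2.37 and 3.16 FPKM in the 6 libraries of HCC1937 and was listed at 0 or at 0.0257 in those of SUM149PT, and it was not called between the fractions of HCC1937. IFNK was at 0.0858 FPKM or less in every library. IFNA1, IFNA2, IFNW1 and IFNG, the type II ligand, were listed at 0 in all 15 libraries.

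The receptor chain IFNLR1, through which type III interferons act, was lower in the CSCs of both lines. It stood at 0.918, 0.830 and 0.875 FPKM in SUM149PT CSCs and at 4.01, 3.37 and 3.60 in non-CSCs, and at 0.853, 0.769 and 0.713 in HCC1937 CSCs and 1.84, 1.93 and 2.10 in non-CSCs. Neither line had overlap between its fractions. The log2 fold change was -1.95 ± 0.082 (adjusted p = 1.02e-05 by limma) in SUM149PT and -1.23 ± 0.091 (adjusted p = 0.000617) in HCC1937, with a difference of -0.72 (adjusted p = 0.000546), a larger fall in SUM149PT. With a pseudocount of 1 the value in HCC1937 was -0.73, under the fold limit. PTPN6 (SHP-1), a phosphatase that acts on JAK kinases, had means of 0.692 and 17.7 FPKM in SUM149PT CSCs and non-CSCs and of 5.48 and 12.2 in HCC1937, with -4.49 (adjusted p = 2.38e-06) and -1.13 (adjusted p = 0.000684).

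Of the other inducible genes, TRIM22 and RTP4 were called higher in SUM149PT CSCs and lower in HCC1937 CSCs (0.257% of the genes tested in both lines). TRIM22, a ubiquitin ligase with antiviral activity, had means of 3.81 and 1.42 FPKM in SUM149PT CSCs and non-CSCs and of 0.220 and 0.870 in HCC1937, with log2 fold changes of 1.38 (adjusted p = 0.000293) and -1.59 (adjusted p = 0.0024) by limma. RTP4, a chaperone of membrane receptors, had means of 1.08 and 0.264 FPKM and of 3.09 and 8.85, with 1.80 (adjusted p = 0.00933) and -1.48 (adjusted p = 0.000617). Their differences between lines were 2.97 (adjusted p = 3.88e-06) and 3.29 (adjusted p = 0.000168). With a pseudocount of 1 TRIM22 was under the fold limit in both lines, at 0.998 and -0.61, and RTP4 in SUM149PT, at 0.72.

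**Figure D4:**
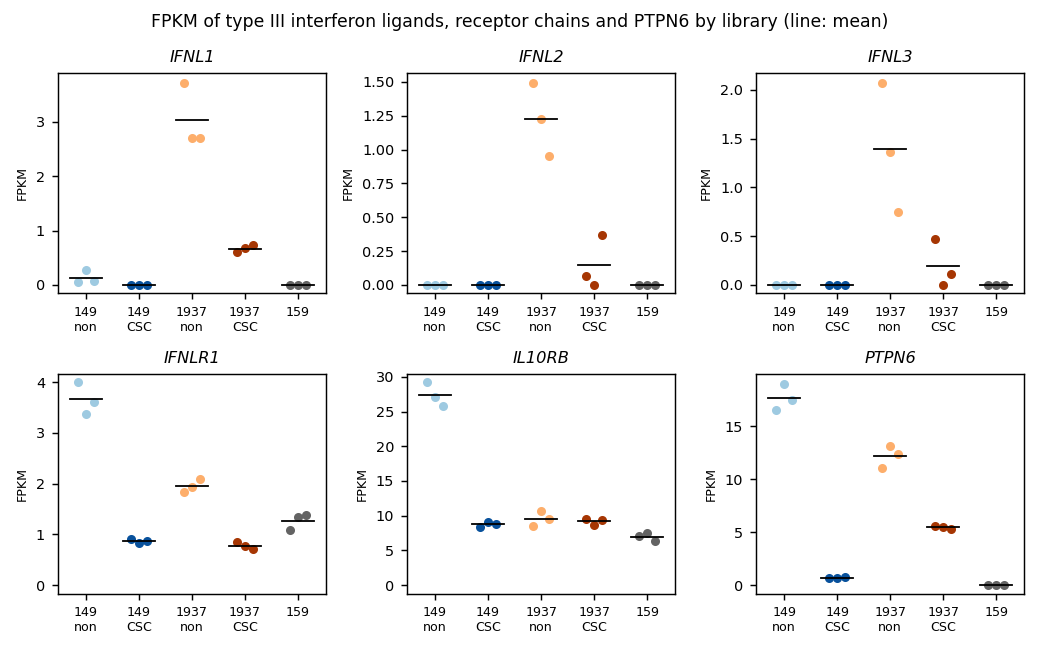
FPKM of the type III interferon genes IFNL1, IFNL2 and IFNL3, of the receptor chains IFNLR1 and IL10RB, and of the phosphatase gene PTPN6 in each library (points), with the group mean as a line and each line named by the number in its name. IFNL1 is highest in HCC1937 non-CSCs, at 2.71 to 3.71 FPKM, and IFNLR1 is lower in the CSCs of both sorted lines.

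The lines were also compared with each other, and these comparisons share libraries with those above and among themselves. Between non-CSCs, 28 of 41 interferon stimulated genes were called (42.7% of all genes), 20 higher in HCC1937 (22.0%) and 8 lower (20.7%), and 17 at an adjusted p of 0.0001 (27.4%). Between CSCs, 14 of 39 were called (43.8%), 9 higher in HCC1937 (26.1%) and 5 lower (17.7%). The split between CSCs was 10 (25.1% of all genes) and 7 (19.3%) with TPM and 8 (22.0%) and 7 (20.5%) after quantile normalization. With a trend on GC content removed, an alternative chosen after seeing the data, it was 8 (20.9%) and 8 (21.7%). Of the 37 that reached the minimum in both groups of non-CSCs, 24 were called (37.5% of such genes), 19 higher (20.9%) and 5 lower (16.7%), which set aside RSAD2, IRF7, CXCL10 and CXCL11. Of the 36 that did so between CSCs, 13 were called (38.5%), 9 higher (23.8%) and 4 lower (14.7%), which set aside IRF7. HCC1937 held most of the higher values between non-CSCs, and the share called between CSCs was not above that of all genes.

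The median log2 fold change of HCC1937 over SUM149PT was 0.89 between non-CSCs, where that of all genes was 0.10, and 0.02 between CSCs, where that of all genes was 0.24. TPM moved the median of all genes between non-CSCs to -0.06 and that of the interferon stimulated genes to 0.75, and quantile normalization moved the median of all genes between CSCs to 0.06.

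HERC6 had log2 fold changes of 3.12 (adjusted p = 5.17e-06) between non-CSCs and 2.95 (adjusted p = 4.58e-05) between CSCs by limma, MX2 had 2.89 and 2.58, and IFITM1 had -2.20 and -3.03. MX1, OAS1 and OAS2 were called higher in HCC1937 between non-CSCs, at 1.23, 1.46 and 1.70. Between CSCs they were not called, at 0.02, -0.16 and -0.94.

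SUM159PT stood apart from both sorted lines in its values as a whole. The median log2 fold change of all genes was -0.76 against SUM149PT CSCs and -0.97 against HCC1937 CSCs, with TPM -1.83 and -1.96, and after quantile normalization 0.04 and -0.01. Against SUM149PT CSCs 29 of 39 interferon stimulated genes were called (66.9% of all genes), 6 higher (21.3%) and 23 lower (45.6%). Against HCC1937 CSCs 30 of 39 were called (66.8%), 7 higher (18.5%) and 23 lower (48.3%). Of the 35 that reached the minimum in both groups against SUM149PT CSCs, 25 were called (64.6% of such genes), 5 higher (22.5%) and 20 lower (42.1%). Of the 33 that did so against HCC1937 CSCs, 24 were called (62.5%), 4 higher (18.1%) and 20 lower (44.4%). Set aside in both were CXCL10, higher, and HERC5, SAMD9 and SAMD9L, lower, and against HCC1937 CSCs also CXCL11 and IRF7, higher. With TPM the splits were 2 higher (8.46% of all genes) and 29 lower (61.5%), and 5 higher (9.49%) and 26 lower (63.4%). After quantile normalization they were 7 (31.9%) and 16 (30.8%), and 8 (30.5%) and 15 (31.5%). The share of higher among all called genes went from 31.8% to 12.1% and 50.9% against SUM149PT CSCs, and from 27.6% to 13.0% and 49.2% against HCC1937 CSCs.

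These fold changes followed the GC content of transcripts. Across genes, which are not independent replicates, Spearman's rho between GC content and the log2 fold change over SUM149PT CSCs was 0.62 for 13140 genes and 0.57 for 39 interferon stimulated genes. For the 3285 genes of lowest GC content the median log2 fold change was -2.72, and for the 9 interferon stimulated genes in that range -2.93. For the 3285 of highest GC content it was 0.77, and for the 5 interferon stimulated genes there 0.75. At a GC content of 42.5% to 49.1%, it was -1.56 for all genes and -2.68 for 12 interferon stimulated genes. From 49.1% to 57.2%, it was 0.03 for all genes and -0.52 for 13 of them. In these middle ranges the interferon stimulated genes thus lay below all genes. With a smooth trend on GC content removed from each library, an alternative chosen after seeing the data, 17 were called against SUM149PT CSCs (51.3% of all genes), 6 higher (25.7%) and 11 lower (25.6%). Against HCC1937 CSCs 21 were called (52.1%), 8 higher (26.4%) and 13 lower (25.7%). The share called was thus below that of all genes in the former comparison and near it in the latter. The median log2 fold change of the interferon stimulated genes was then -0.42 and -0.34 in these comparisons, and that of all genes -0.02 and -0.003. Between the fractions of a sorted line rho over all genes was -0.14 in SUM149PT and -0.18 in HCC1937.

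**Figure D5:**
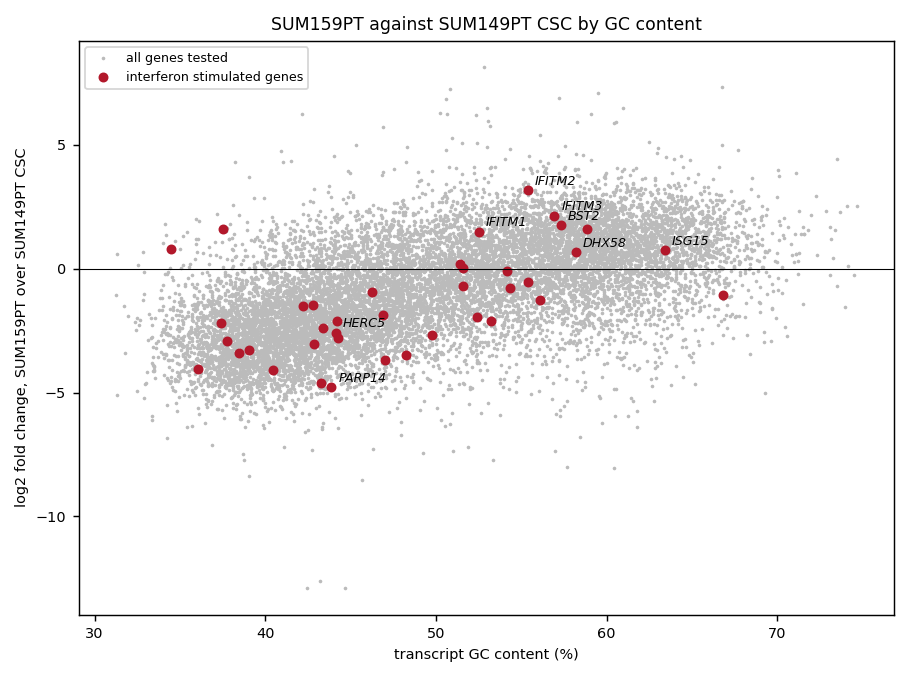
Log2 fold change of SUM159PT over SUM149PT CSCs against the GC content of the transcript in percent, for 13140 genes (grey) and 39 interferon stimulated genes (red). Both sets rise from low to high GC content, with rho of 0.62 and 0.57, and the highest red point, at 3.17, is IFITM2.

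The 4 highest interferon stimulated genes in SUM159PT were the membrane factors. IFITM3 stood at 2310.0, 2067 and 2191 FPKM in SUM159PT, at 465, 551 and 479.9 in SUM149PT CSCs and at 326, 271 and 248 in HCC1937 CSCs. IFITM1 stood at 726, 685 and 584 FPKM in SUM159PT, at 204, 262 and 239 in SUM149PT CSCs and at 24.2, 30.2 and 31.5 in HCC1937 CSCs. SUM159PT was the highest group for both, with no overlap. IFITM2 stood at 392, 356 and 345 FPKM, against 35.5, 44.4 and 42.0 and against 29.9, 24.5 and 27.7, and BST2 at 385, 432 and 411 FPKM, against 110.4, 135 and 121 and against 183, 178 and 152. SUM159PT was again the highest.

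Log2 fold changes over SUM149PT CSCs were 2.14 for IFITM3, 1.50 for IFITM1, 3.17 for IFITM2 and 1.75 for BST2, and over HCC1937 CSCs 2.96, 4.53, 3.73 and 1.26. All were called by limma, at adjusted p from 3.54e-07 to 4.63e-05. With TPM IFITM1 and BST2 were at 0.41 and 0.66 over SUM149PT CSCs and BST2 at 0.26 over HCC1937 CSCs, under the fold limit. After quantile normalization IFITM1, IFITM3 and BST2 were at 0.45, 0.65 and 0.90 over SUM149PT CSCs and BST2 at 0.38 over HCC1937 CSCs. All stayed above 0, and the size depended on the scaling.

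IFI35 was also called higher than in SUM149PT CSCs, at 1.61 (adjusted p = 7.51e-05) by limma, and was at 0.53 with TPM and 0.99 with the GC trend removed, under the fold limit.

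The sensors IFIH1 and DDX58 were among the low genes of SUM159PT. IFIH1 stood at 0.228, 0.371 and 0.320 FPKM there, PARP14 at 0.245, 0.295 and 0.419 and DDX58 at 0.0918, 0.189 and 0.149. HERC5 was listed at 0 in 2 of the 3 libraries and CMPK2 in all 3. STAT2, DHX58 and ISG15 had means of 13.1, 8.98 and 66.2 FPKM there against 12.7, 5.59 and 39.4 in SUM149PT CSCs and 10.9, 9.09 and 65.3 in HCC1937 CSCs, and none of the 3 was called. In TPM each was below both CSC fractions in SUM159PT, without overlap, so the order depended on the scaling.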

How the data were processed

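The values analysed are the FPKM that the authors deposited, for 33158 symbols in 15 libraries, and 0 value columns were left unmatched to a library. Bowtie2, with no version, and GRCh38 are credited to the submitters' processing notes. The quantification tool, the annotation and any scaling between libraries are not given in the sources used here. Sequencing depth is unknown.

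On log2(FPKM + 0.1), limma 3.58.1 in R 4.3.3 was fitted (lmFit, eBayes) to genes that averaged 0.1 FPKM or more in the libraries compared, with Benjamini-Hochberg adjustment over all genes tested. Calls needed an adjusted p not above 0.05 and a log2 fold change of 1 or more in either direction. The model was tested on simulated data.

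Full values are given for genes called in both sorted lines, for up to 6 called in each direction in a line with the largest change, no overlap and a mean of 1 FPKM or more in a fraction, and for the 4 highest in SUM159PT. Other genes given with values, IRF1 among them, were chosen after their values were seen. The 42 genes and the lists of pathway genes and markers were chosen with earlier results of these data known. The list of pathway genes as first set held 1 more gene, which is not reported here.

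GC content and transcript sequences came from GENCODE v29, matched by symbol, and promoters from RefSeq. A GC content was found for 87.7% of the genes tested in SUM159PT against SUM149PT CSCs and for all 42 genes. Python 3.11.15, pandas 2.3.3, numpy 2.4.6 and matplotlib 3.10.9 were used. Alternatives tried were the pseudocount, the expression minimum, TPM and quantile scaling, the eBayes trend, the replicate number as a block, a fit over all 15 libraries, the call limits (an adjusted p of 0.0001, as in the study, among them), leaving out libraries and, chosen after seeing the data, removal of a GC trend and an expression minimum in every group compared.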

Additional observations from a re-analysis of the deposited data

Results flagged for a closer look

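The effect of CSCs over non-CSCs differed between SUM149PT and HCC1937, by the test of the difference itself, for 17 interferon stimulated genes as called, of which CXCL10 is listed but not read as a result. Each value is the log2 fold change in SUM149PT minus that in HCC1937, and all 17 had an adjusted p of 0.05 or less by limma and a size of 1 or more.

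The effect in SUM149PT was above that in HCC1937 for the signalling factors IRF1 (1.36) and IRF9 (1.06), for the OAS enzymes OAS1 (1.62), OAS2 (2.64) and OAS3 (1.62), and for the GTPases MX1 (1.20), GBP1 (1.85) and GBP2 (1.50). It was also above it for SAMD9 (1.05), SAMD9L (1.50) and IFI35 (1.50).

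The effect in SUM149PT was below that in HCC1937 for IFIT2 (-1.25), OASL (-1.33), IFITM2 (-1.07), HERC5 (-2.06), ISG20 (-1.28) and CXCL10 (-2.18). CXCL10 did not reach the expression minimum in HCC1937 and reached it in SUM149PT through the non-CSCs alone, and with a pseudocount of 1 its difference was -0.57, under the fold limit. The differences of IFIT2, ISG20, SAMD9 and SAMD9L were also under that limit with a pseudocount of 1, and those of IRF9 and SAMD9 with TPM. As 30.4% of all genes tested passed the same limits, a difference between the lines was common in these libraries.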

How the results depend on the processing

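In SUM149PT, 11 interferon stimulated genes were called as reported (34.9% of all genes) and 5 with a pseudocount of 1 (19.4%). At an adjusted p of 0.0001 there were 6 (20.5%), and with no fold limit 29 (74.8%). In HCC1937, 4 were called as reported (8.71%) and 1 with a pseudocount of 1 (4.02%). At 0.0001 there were 0, as for all genes, and 26 had an unadjusted p under 0.05 by limma (37.8%). With no fold limit there were 21 (25.6%). The difference between lines went from 17 (30.4%) to 12 with a pseudocount of 1 (17.5%) and to 12 at 0.0001 (17.8%). With no fold limit it was 32 (61.1%). HCC1937 against SUM149PT non-CSCs went from 28 (42.7%) to 17 at 0.0001 (27.4%). A higher pseudocount shrinks fold changes of low genes by construction. Without a fold limit, the 21 in HCC1937 became 12 with TPM, with no share of all genes at hand, and the cause was not tested. SUM159PT against SUM149PT CSCs went from 29 (66.9%) to 17 (51.3%) with the GC trend removed, an alternative chosen after seeing the data. IFIT2 reversed there, to 0.66 (adjusted p = 0.0112 by limma). Against HCC1937 CSCs the count went from 30 (66.8%) to 21 (52.1%) with that trend removed. Quantile normalization gave 23 in both comparisons (62.6% and 62.0%).

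Leaving out 1 library at a time gave 9 to 11 called in SUM149PT (34.4% to 34.9% of all genes) and 4 to 5 in HCC1937 (7.51% to 8.73%). For the difference between lines it gave 16 to 19 (29.7% to 30.6%). Between the lines it gave 14 to 15 for CSCs (42.9% to 44.3%) and 28 to 28 for non-CSCs (42.1% to 42.8%). For SUM159PT it gave 28 to 30 against SUM149PT CSCs (66.5% to 66.9%) and 29 to 30 against HCC1937 CSCs (66.1% to 67.0%). With no fold limit the ranges were 24 to 27, 14 to 20 and 29 to 33 for the first 3.

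Whether fractions of the same replicate number came from the same sort is not stated. Deviations of same-numbered libraries correlated at 0.14, 0.02 and 0.13 in SUM149PT and at -0.13, -0.05 and -0.03 in HCC1937. Differently numbered ones correlated at -0.20 to 0.07 and at -0.09 to 0.13, and not every library correlated best with its own number. With 3 libraries in a group these values cannot decide whether the samples were paired. With the replicate number as a block, 10 were called in SUM149PT (34.8% of all genes), 4 in HCC1937 (8.14%) and 17 for the difference between lines (30.1%). Between lines the block gave 14 for CSCs (43.6%) and 28 for non-CSCs (42.5%). For SUM159PT it gave 29 (67.0%) against SUM149PT CSCs and 30 (67.2%) against HCC1937 CSCs. With no fold limit the block gave 25, 18 and 31.

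Depth is unknown in FPKM, and genes near 0.1 FPKM, such as RSAD2, CMPK2, CXCL10 and CXCL11, are the least certain.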
